A study of Mus musculus with 6 samples.

Results

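The mouse mitochondrial genome carries 37 genes, and each of them has a row among the 54532 genes of the deposited expression table. The rows were taken by their chromosome label, MT, and fall into 13 protein-coding genes, 2 ribosomal RNA (rRNA) genes and 22 transfer RNA (tRNA) genes. On the plus strand lie 28 of them (12 protein-coding, 2 rRNA and 14 tRNA), and on the minus strand 9 (1 protein-coding, mt-Nd6, and 8 tRNA). RNA came from the myocardium of hypertrophic hearts of wild-type C57BL/6 mice aged 18 weeks. The 3 control libraries came from hearts that had received an adeno-associated virus of serotype AAV9 that carries EGFP, a fluorescent protein. The 3 libraries of the other group came from hearts that had received AAV9 with anti-miR-199a tough decoys (TuDs). These decoys are RNAs that hold a microRNA away from its targets. Both groups were thus hypertrophic and had received AAV9, and no heart without virus or without hypertrophy was analysed here. Promoter, dose, route, sex and the way hypertrophy was brought about are not given in the sources used here. Nor is it said that each library is a separate animal, so a p-value measures the spread between libraries, which may in part be technical.

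Mitochondrial DNA is transcribed from both strands into long precursor RNAs that run through many genes. The tRNAs lie between the rRNAs and messenger RNAs, and cutting them out, by RNase P at one end and ELAC2 at the other, releases the other transcripts. Those transcripts then turn over at their own rates, so genes of 1 precursor can differ in level. The encoded proteins are core subunits of complexes I, III and IV of the respiratory chain and of the ATP synthase, which supply most of the ATP of heart muscle, and the 2 rRNAs and 22 tRNAs serve the ribosome that makes these proteins inside the organelle.

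Reads recovered from the deposited values came to 18.0 to 18.2 M (megareads) per control library and 15.2 to 16.7 M per TuD library. Levels below are normalised FPKM (fragments scaled to transcript length and to the authors' library size, divided by a size factor per library), and 3 values in a row stand for replicates 1, 2 and 3. The authors' library size, recovered from the same values, was 1.06, 1.06 and 1.04 times the recovered reads in the controls. In the TuD libraries it was 0.946, 0.943 and 1.01 times, so folds in FPKM and in shares of reads differ. Transcripts of 4 Y-linked genes were nearly absent from TuD replicates 1 and 2, at a summed FPKM of 0.0254 and 0.00711, against 8.32 to 12.5 in the other 4 libraries. All 8 cardiomyocyte markers passed the filter for testing. Their summed level was 26028 to 26980 in the controls and 27154 to 32837 in the TuD hearts, without overlap. In the fit described below 4 of the 8 rose and 1 fell, beside 15% and 14.3% of all tested genes. Of the other cell types checked, adipocyte markers had no overlap between the groups (4 genes, 1 of which passed the filter, summed level 0.125 to 0.849 against 3.97 to 11.9, with Adipoq without a read in control replicates 2 and 3). The 5 erythroid markers summed to 1144 to 1606 against 1376 to 3295, and 2 of them rose in that fit. A term for the presence of Y-linked transcripts is among the alternatives below. The part of the marker differences in the results below was not tested. In RNA of whole myocardium, fewer cells of a type and less RNA per cell cannot be told apart, and the same holds for mitochondria per cell and RNA per mitochondrion.

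Neighbouring mitochondrial genes abut or overlap, and some have near-identical copies in the nuclear genome. Both properties touch the values below, so the sequences concerned are shown here as GENCODE release M21 (GRCm38) gives them, 5′ to 3′. The first pair of stretches holds the overlaps between genes, in capitals, with 15 bases on each side. mt-Atp8 and mt-Atp6, read on the same strand, share 43 bases (MT:7927-7969), and mt-Nd5 and mt-Nd6, on opposite strands, share 14 (MT:13552-13565, plus strand shown).
mt-Atp8 and mt-Atp6: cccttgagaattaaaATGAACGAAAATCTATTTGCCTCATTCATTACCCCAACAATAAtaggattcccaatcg
mt-Nd5 and mt-Nd6: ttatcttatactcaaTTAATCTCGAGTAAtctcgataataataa

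A block on the minus strand of chromosome 1 (GRCm38 chr1:24611535-24616197) holds 7 annotated unprocessed pseudogenes in the same order as the mitochondrial stretch from the end of mt-Co1 to the middle of mt-Nd4 (MT:6381-11042). Gm28661 matched mt-Co2, Gm10925 matched mt-Atp6, Gm28437 matched mt-Co3, Gm10222 matched mt-Nd4l and Gm28439 matched the first 876 bases of mt-Nd4, all with 0 differences over the aligned bases. Gm28438 differed from mt-Nd3 at 1 base, T3C, and Gm29216 differed from the last 492 bases of mt-Co1 at 6, T1056A, C1057T, A1059G, A1060G, C1062A and A1066T, where positions count from the first base of the mitochondrial gene and its base stands first. The start of each aligned stretch is shown for both genes with a difference, which is in capitals.
mt-Nd3: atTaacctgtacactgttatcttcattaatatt
Gm28438: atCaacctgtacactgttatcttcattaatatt
mt-Co1: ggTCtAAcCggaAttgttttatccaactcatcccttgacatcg
Gm29216: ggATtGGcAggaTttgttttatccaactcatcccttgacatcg

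Of all stretches of 150 bases in a gene, the copies held 99.4% for mt-Co2, 99.4% for mt-Atp6, 99.8% for mt-Co3, 97.0% for mt-Nd3, 98.0% for mt-Nd4l, 59.2% for mt-Nd4 and 23.6% for mt-Co1. A read from such a stretch fits both places, and how such reads were counted is not given in the sources used here. mt-Atp8 and the tRNAs mt-Ts1, mt-Td, mt-Tk, mt-Tg and mt-Tr lie within the same span, between the annotated copies, and the nuclear sequence there was not analysed here. The levels of these genes are therefore less certain than those of mt-Nd1, mt-Nd2, mt-Nd5, mt-Nd6, mt-Cytb and both rRNAs, for which no annotated transcript outside the mitochondrial genome shared a stretch of that length.

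Reads on the mitochondrial genome made up 11.96%, 5.31% and 8.29% of all reads in the controls and 17.5%, 12.6% and 11.1% in the TuD hearts, or 8.52% ± 3.33 against 13.7% ± 3.33 (SD, n = 3 per group). Control replicate 1 lay above TuD replicate 3, so the groups overlapped. Protein-coding genes held 91.5% to 97.9% of the mitochondrial reads in the 6 libraries, and their share of all reads overlapped in the same way (5.04% to 11.7% against 10.4% to 16.6%). Reads on the 2 rRNAs made up 0.212%, 0.231% and 0.237% of all reads in the controls and 0.792%, 0.991% and 0.595% in the TuD hearts. The controls lay close together, and the lowest TuD library was above the highest control. Reads on the 22 tRNAs made up 0.0433%, 0.0350% and 0.0445% of all reads against 0.0642%, 0.0799% and 0.0818%, again without overlap. As shares of the mitochondrial reads alone, the rRNAs reached 1.77%, 4.36% and 2.86% in the controls and 4.53%, 7.88% and 5.35% in the TuD hearts, while the tRNA shares overlapped (0.362% to 0.660% against 0.368% to 0.736%).

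**Figure D1:**
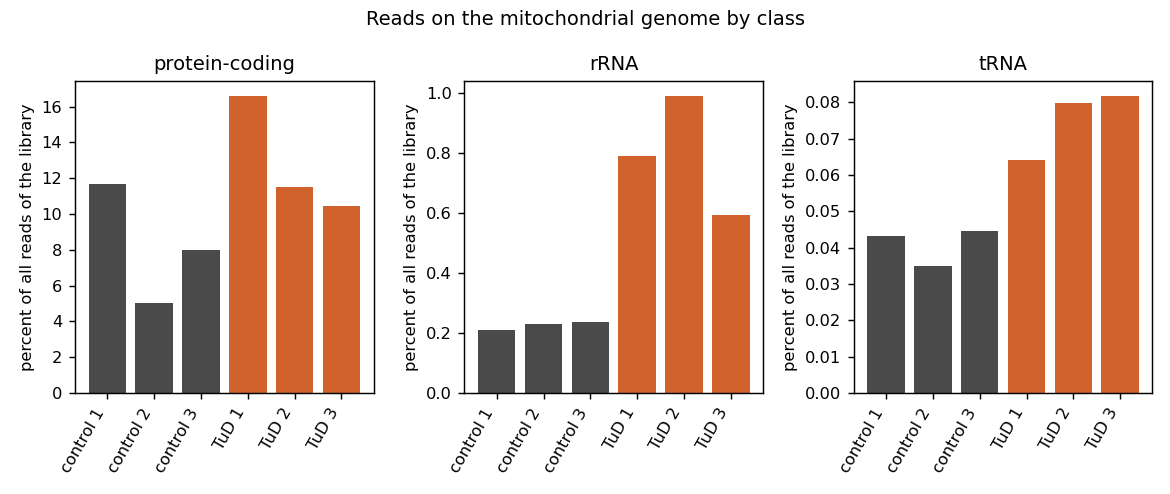
Percent of all reads of each library that fell on mitochondrial protein-coding, rRNA and tRNA genes; each bar is 1 library, control bars are grey and TuD bars orange. Protein-coding bars overlap between the groups (control replicate 1 at 11.7%, TuD replicate 3 at 10.4%), whereas every TuD bar for rRNA and tRNA is above every control bar.

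Of the 37 genes 32 passed the filter (an FPKM of at least 1 in at least 3 libraries) and entered a limma fit over 10460 genes. In the TuD hearts 15 of the 32 rose (Benjamini-Hochberg adjusted p below 0.05), none fell and 17 did not pass. The number that fell was also 0 at an unadjusted p under 0.05 and 0 with limma-voom on the recovered reads. Over all tested genes 15% rose and 14.3% fell. The median log2 fold change, TuD minus control, was 1.12 over the 32 genes and 0.01 over all tested genes. Fold changes are on the scale of log2(normalised FPKM + 0.5). By class, both rRNAs rose, as did 6 of 13 protein-coding genes (median 1.10) and 7 of 17 tested tRNAs (median 1.13). In 15 of the 32, mt-Ts1 among them, every TuD library was above every control library, as in 23.5% of all tested genes. Some libraries stood apart across genes: control replicate 2 was the lowest of the 6 libraries in 12 of the 13 protein-coding genes and TuD replicate 1 was the highest in 10 of them. Without TuD replicate 1, 7 of the 32 rose, without TuD replicate 2, 8, and without TuD replicate 3, 18. Over all tested genes 1143, 1166 and 1703 rose in these fits, against 1565 with all 6 libraries. With a term for the presence of Y-linked transcripts, 6 rose and 2 fell (mt-Tm and mt-Ta), and the difference rests on TuD replicate 3 against the controls. With that term 651 of all tested genes rose and 529 fell. mt-Ts1 is one of the 15 that rose and is counted in each of these fits. It passed the filter through the TuD libraries alone, so its call was bound to occur and is no support. Without it 14 of 31 tested genes rose, 6 of them tRNAs. Of these 14, mt-Rnr1, mt-Rnr2, mt-Atp6 and mt-Tc stayed past the threshold in each of 20 alternatives, and the other 10 lost it in at least 1.

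**Figure D2:**
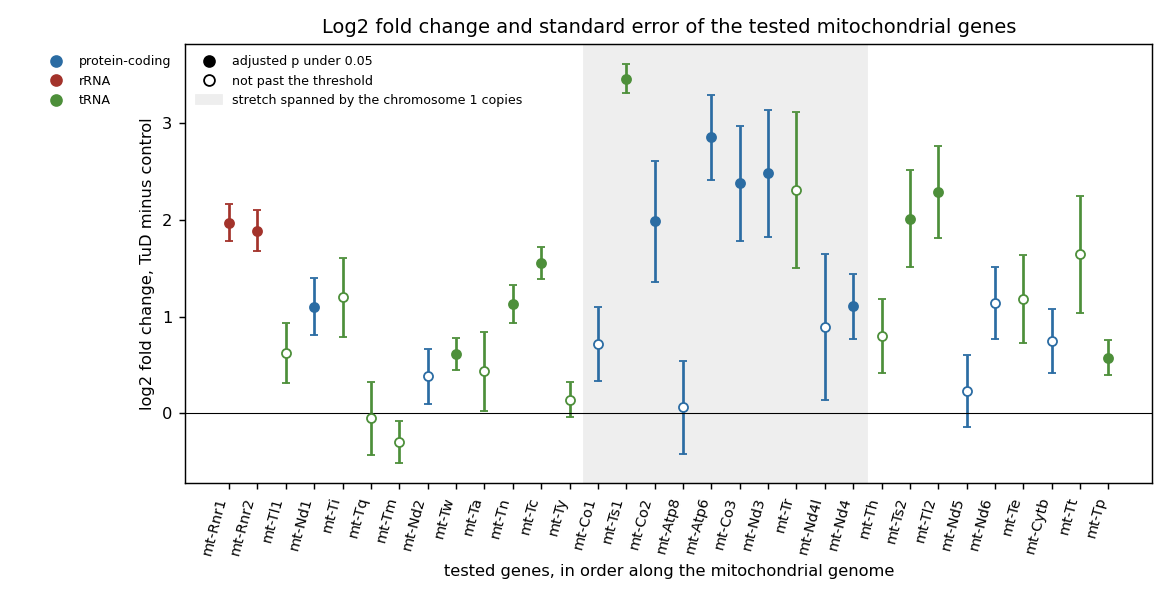
Log2 fold change (TuD minus control) with its standard error for the 32 tested genes in genome order, coloured by class; filled points have an adjusted p below 0.05 and the grey band is the stretch spanned by the chromosome 1 copies. Most points lie above 0, mt-Tq and mt-Tm lie below it without passing the threshold, and the points of the grey band from mt-Atp6 to mt-Tr are among the highest and have wide errors.

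Both rRNAs rose about as much as each other. mt-Rnr1, the RNA of the small ribosomal subunit (ENSMUSG00000064337, MT:70-1024, plus strand), stood at 782, 848 and 881 in the controls and 3451, 4117 and 2481 in the TuD hearts. The log2 fold change was 1.97 ± 0.19 (SE, adjusted p = 0.00194, limma), with means of 837 ± 50.2 and 3349.6 ± 823 (SD, n = 3 per group). mt-Rnr2, the RNA of the large subunit (MT:1094-2675, plus strand), stood at 806, 838 and 889 in the controls and 3251, 4119.6 and 2269.6 in the TuD hearts, a log2 fold change of 1.89 ± 0.21 (SE, adjusted p = 0.00212, limma). For both genes the controls were tight and each TuD library was well above them, with TuD replicate 2 the highest. The 2 are made next to each other from the same precursor, and the ratio of mt-Rnr2 to mt-Rnr1 reads was 1.71, 1.64 and 1.67 in the controls and 1.56, 1.66 and 1.52 in the TuD hearts, which overlap. Over the alternatives the adjusted p of mt-Rnr1 ran from 0.000503 to 0.0144 and that of mt-Rnr2 from 0.000503 to 0.0166. With the Y-linked term the log2 fold changes were 1.57 and 1.43. mt-Nd1 follows mt-Rnr2 on the same strand, and the ratio of mt-Rnr1 to mt-Nd1 on the FPKM scale was 0.0454, 0.102 and 0.0727 in the controls and 0.113, 0.152 and 0.120 in the TuD hearts, all 3 above every control. The rRNA level rests on what the library preparation kept of these RNAs, and whether rRNA was removed is not given in the sources used here.

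The complex I genes, whose products form the membrane arm of NADH dehydrogenase, rose in 3 of 7 cases (mt-Nd1, mt-Nd3 and mt-Nd4). mt-Nd1 (MT:2751-3707) stood at 17224, 8274 and 12122 in the controls and 30629.5, 27063 and 20648 in the TuD hearts, and its groups did not overlap (log2 fold change 1.10 ± 0.30 SE, adjusted p = 0.0265, limma). mt-Nd4 (MT:10167-11544) stood at 7511, 3103 and 6086 in the controls and 14813, 9884 and 9726 in the TuD hearts, without overlap (1.11 ± 0.34 SE, adjusted p = 0.0401). mt-Nd3 (MT:9459-9806), which is far lower, stood at 89.2, 111 and 28.1 in the controls and 682, 519 and 139.9 in the TuD hearts (2.48 ± 0.66 SE, adjusted p = 0.0251), and TuD replicate 3 was only a little above the highest control. The calls of mt-Nd1, mt-Nd4 and mt-Nd3 were lost in 8, 8 and 7 of 20 alternatives, all 3 without TuD replicate 1, TuD replicate 2 or control replicate 3 and with the Y-linked term. mt-Nd2 (MT:3914-4951) stood at 9110.5, 4952 and 7497 in the controls and 12295, 8699 and 7007 in the TuD hearts, with TuD replicates 2 and 3 inside the control range (0.38 ± 0.29 SE, adjusted p = 0.338). mt-Nd5 (MT:11742-13565) had TuD replicates 2 and 3 below the control mean, at 3820.2, 1399 and 2353 in the controls and 3972, 2276 and 2263 in the TuD hearts (0.23 ± 0.37 SE, adjusted p = 0.663). mt-Nd4l (MT:9877-10173) was high in TuD replicate 1 only, at 89.5, 26.1 and 145 in the controls and 389.6, 71.1 and 79.6 in the TuD hearts (adjusted p = 0.396). The only protein-coding gene of the minus strand, mt-Nd6 (MT:13552-14070), stood at 4996, 1698 and 3744 in the controls and 8743, 5768 and 6737 in the TuD hearts; its groups did not overlap, and it fell just short of the threshold (1.14 ± 0.37 SE, adjusted p = 0.0513), which it passed in 5 of 20 alternatives.

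mt-Cytb (MT:14145-15288), cytochrome b and the only complex III subunit of the mitochondrial genome, stood at 16153, 7056 and 12203 in the controls and 25694, 15735 and 16306 in the TuD hearts. TuD replicate 2 lay below control replicate 1, and the difference did not pass (log2 fold change 0.75 ± 0.33 SE, adjusted p = 0.124, limma). Of the 3 complex IV genes, mt-Co1 (MT:5328-6872), the catalytic subunit of cytochrome c oxidase and the most abundant of the 13 per length in every library but TuD replicate 2, did not pass. Its levels were 29609, 11154 and 17362 in the controls and 42822, 26374 and 22559 in the TuD hearts (0.72 ± 0.39 SE, adjusted p = 0.190), and control replicate 1 was above TuD replicates 2 and 3. mt-Co3 (MT:8607-9390) rose, at 1175, 224 and 781 in the controls and 3759.9, 4408 and 1741 in the TuD hearts, without overlap (2.38 ± 0.59 SE, adjusted p = 0.0203). mt-Co2 (MT:7013-7696) passed narrowly at 726, 225 and 586 in the controls and 3678, 2279 and 707 in the TuD hearts (1.98 ± 0.62 SE, adjusted p = 0.0449), but control replicate 1 was above TuD replicate 3, and 10 of 20 alternatives ended the call. The call of mt-Co3 was ended by 6 alternatives, among them leaving out TuD replicate 1 or TuD replicate 2.

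Both ATP synthase genes lie in the span of the chromosome 1 copies and share a transcript. mt-Atp6 (ENSMUSG00000064357, MT:7927-8607), a subunit of the proton channel, had the highest fold change of the 13, at 534, 132 and 261 in the controls and 1963, 2365 and 1499.6 in the TuD hearts. Every TuD library was far above every control, and control replicate 1 was the highest control (log2 fold change 2.85 ± 0.44 SE, adjusted p = 0.00451, limma; 0.00130 to 0.0429 over the alternatives). mt-Atp8 (MT:7766-7969), the short neighbour that shares the 43 bases printed above, stood at 19.2, 6.21 and 32.0 in the controls and 18.3, 17.0 and 14.5 in the TuD hearts, that is 25 to 124 reads per library (0.06 ± 0.48 SE, adjusted p = 0.931). Although both are read from 1 transcript, the ratio of mt-Atp6 to mt-Atp8 on the FPKM scale was 27.7, 21.2 and 8.16 in the controls and 107, 139 and 104 in the TuD hearts. The annotated mt-Atp8 is 204 bases long, and mt-Atp6 shares 99.4% of its stretches of 150 bases with its copy Gm10925. The part of that length in this ratio was not tested, and neither was that of the assignment of reads between mt-Atp6 and Gm10925.

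**Figure D3:**
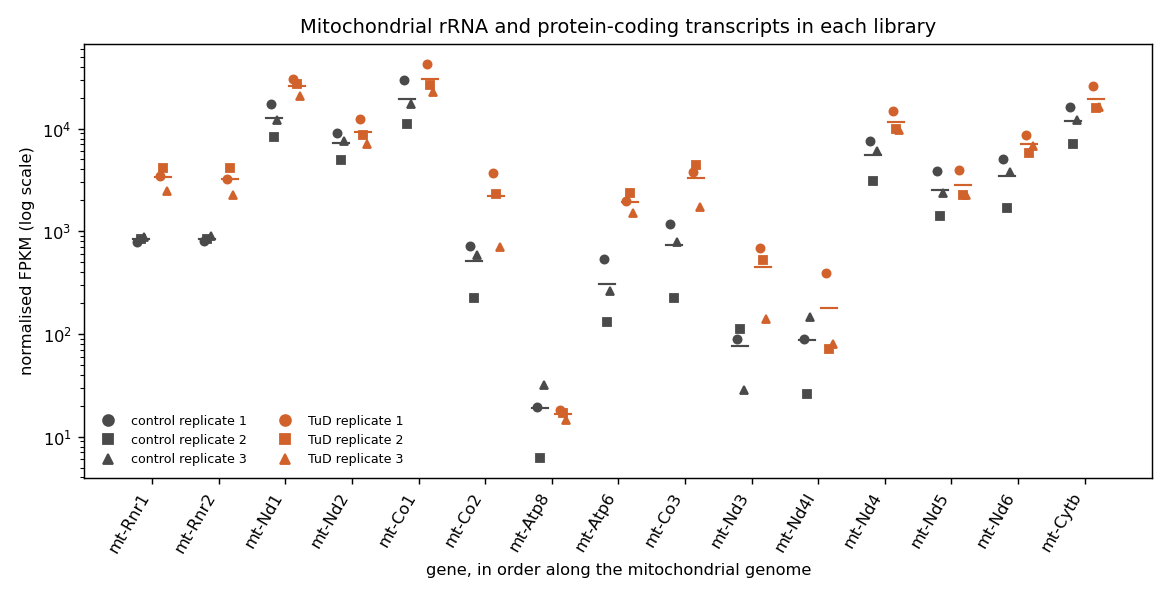
Normalised FPKM on a log scale of the 2 rRNA and 13 protein-coding genes in each library, in genome order; symbols are replicates, short lines are group means, grey is control and orange is TuD. The rRNA controls fall together far below the 3 TuD libraries, whereas for mt-Nd2, mt-Co1, mt-Nd5 and mt-Cytb the groups interleave.

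Per length, the control levels spanned about 3 orders of magnitude. On the normalised FPKM scale the order of the control means was mt-Co1 (19375 ± 9391), mt-Nd1 (12539.8 ± 4489), mt-Cytb (11804 ± 4562), mt-Nd2 (7187 ± 2097), mt-Nd4 (5567 ± 2249.7), mt-Nd6 (3479 ± 1665), mt-Nd5 (2524 ± 1219.7), mt-Co3 (727 ± 478), mt-Co2 (512 ± 259), mt-Atp6 (309 ± 205), mt-Nd4l (86.8 ± 59.3), mt-Nd3 (75.9 ± 42.8) and mt-Atp8 (19.2 ± 12.9), each with its SD over 3 libraries. Neighbours in this order differed by less than the larger of their SDs, except mt-Cytb from mt-Nd2, mt-Nd5 from mt-Co3, mt-Atp6 from mt-Nd4l and mt-Nd3 from mt-Atp8. The step from mt-Nd5 to mt-Co3 separated the 7 higher from the 6 lower genes. Of the 6 lower genes, 5 are those with a whole copy on chromosome 1, and the other is mt-Atp8 inside the same span. mt-Nd3, mt-Co3, mt-Atp6 and mt-Co2 belong to the same precursor strand as mt-Nd1, mt-Co1 and mt-Cytb. The share of the 5 genes with a whole copy among all mitochondrial protein-coding reads was 1.64%, 1.00% and 1.64% in the controls and 4.04%, 5.63% and 2.81% in the TuD hearts.

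Shares among the mitochondrial protein-coding reads show the makeup of the transcript pool apart from its size. mt-Nd2 took 8.45%, 11.04% and 10.2% of these reads in the controls and 7.21%, 7.45% and 6.96% in the TuD hearts, so each TuD library was below each control. mt-Nd5 had a lower share in the same sense, at 6.23%, 5.48% and 5.64% against 4.09%, 3.42% and 3.95%. Neither gene has an annotated nuclear copy of 150 bases, and both kept groups without overlap when shares were taken over the genes without a copy alone (mt-Nd2 17.5% to 20.9% against 13.6% to 15.3%, mt-Nd5 10.4% to 12.9% against 6.91% to 8.70%). mt-Atp6 took 0.325%, 0.193% and 0.234% against 0.755%, 1.33% and 0.977%. mt-Co3 took 0.823%, 0.378% and 0.805% against 1.67%, 2.85% and 1.31%. mt-Nd4 took 9.25%, 9.19% and 11.03% against 11.5%, 11.2% and 12.8%. These 3 genes lie in the copied stretch, in whole or in part, and their shares of reads were above the controls in each TuD library. As shares of summed FPKM, those of mt-Atp6 and mt-Co3 still did not overlap, whereas those of mt-Nd4 did (8.09% to 9.63% against 9.37% to 10.9%). The shares of mt-Co1 (35.3% to 40.9% against 33.3% to 37.4%), mt-Cytb (16.5% to 18.4% against 14.8% to 17.8%) and mt-Nd1 (14.7% to 17.0% against 16.6% to 21.4%) overlapped. Over the genes without a copy alone, however, the TuD shares of mt-Nd1 (29.3% to 32.2% against 35.2% to 43.1%) and mt-Nd6 (3.59% to 4.91% against 4.98% to 6.56%) were above all controls. A share of a total is bound to the others, since a rise of 1 gene lowers the rest, and no test was made of these sums.

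**Figure D4:**
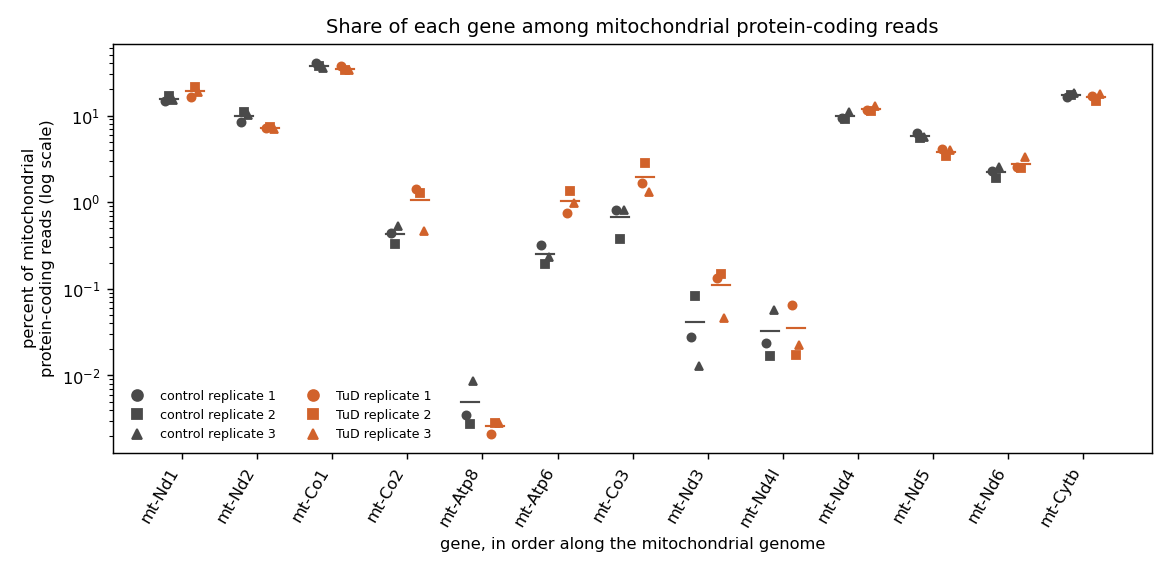
Percent of mitochondrial protein-coding reads taken by each of the 13 genes in each library, on a log scale and in genome order; symbols are replicates and short lines are group means. mt-Nd2 and mt-Nd5 have their 3 TuD points below all controls, and mt-Atp6, mt-Co3 and mt-Nd4 have theirs above (mt-Nd4 in reads, though not in summed FPKM).

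Reads were also assigned to the pseudogenes of chromosome 1. Together the 7 copies took 0.124%, 0.0410% and 0.124% of all reads in the controls and 0.272%, 0.313% and 0.179% in the TuD hearts, without overlap. Gm29216, the copy of the end of mt-Co1, rose from 335, 93.2 and 197 in the controls to 1374, 1655 and 973 in the TuD hearts (log2 fold change 2.83 ± 0.42 SE, adjusted p = 0.00402, limma), and kept an adjusted p of at most 0.0399 in every alternative. mt-Co1 itself did not pass, and the ratio of mt-Co1 to Gm29216 reads was 278, 376 and 277 in the controls but 97.9, 50.1 and 72.8 in the TuD hearts. Gm28661, the copy of mt-Co2, rose (1.86 ± 0.52 SE, adjusted p = 0.0315), and so did Gm28438, the copy of mt-Nd3 (1.92 ± 0.55 SE, adjusted p = 0.0340). The call of Gm28661 was lost in 9 of 19 alternatives, 4 of which left out 1 library (control replicates 2 and 3, TuD replicates 1 and 2). That of Gm28438 was lost in 8 of 19, 3 of which left out 1 TuD library. Both were lost with the Y-linked term. Gm28437 (adjusted p = 0.0584) and Gm10925 (adjusted p = 0.0583) had groups without overlap and did not pass. Gm28439 (0.15 ± 0.45 SE) and Gm10222 (0.12 ± 0.50 SE) were near 0.

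Genes with identical or near-identical copies showed different ratios to them. mt-Atp6 had 1.70, 1.09 and 0.836 reads per read of Gm10925 in the controls and 3.18, 5.60 and 3.66 in the TuD hearts, without overlap, although the aligned 678 bases are the same. mt-Co3 had 2.19, 1.23 and 1.05 reads per read of Gm28437 against 3.29, 2.67 and 2.25. mt-Co2 had 2.09, 2.31 and 2.35 per read of Gm28661 against 3.56, 2.18 and 1.89. mt-Nd3 had 0.606, 3.48 and 0.174 per read of Gm28438 against 2.57, 1.21 and 0.383, a wide spread within the controls alone. mt-Nd4l had 1.28, 1.55 and 3.15 per read of Gm10222 against 5.65, 2.42 and 2.31, which overlap. mt-Nd4 had 131, 165 and 182 per read of Gm28439 against 224, 387 and 332, without overlap. With the reads of each copy added to its gene, an alternative chosen after the data were seen, mt-Atp6 (2.27, adjusted p = 0.00610), mt-Co3 (2.05, adjusted p = 0.0261), mt-Nd3 (2.05, adjusted p = 0.00320), mt-Co2 (1.96, adjusted p = 0.0390) and mt-Nd4 (1.11, adjusted p = 0.0397) remained past the threshold. In the same limma fit mt-Co1 (0.73, adjusted p = 0.178) and mt-Nd4l (0.67, adjusted p = 0.485) did not reach the threshold. Among the 5 genes with a whole copy 4 rose (median log2 fold change 2.38), and among the 5 outside the span (mt-Nd1, mt-Nd2, mt-Nd5, mt-Nd6 and mt-Cytb) 1 rose (median 0.75). This difference between the sets was not tested, and neither was the part that the assignment of reads between gene and copy has in it.

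**Figure D5:**
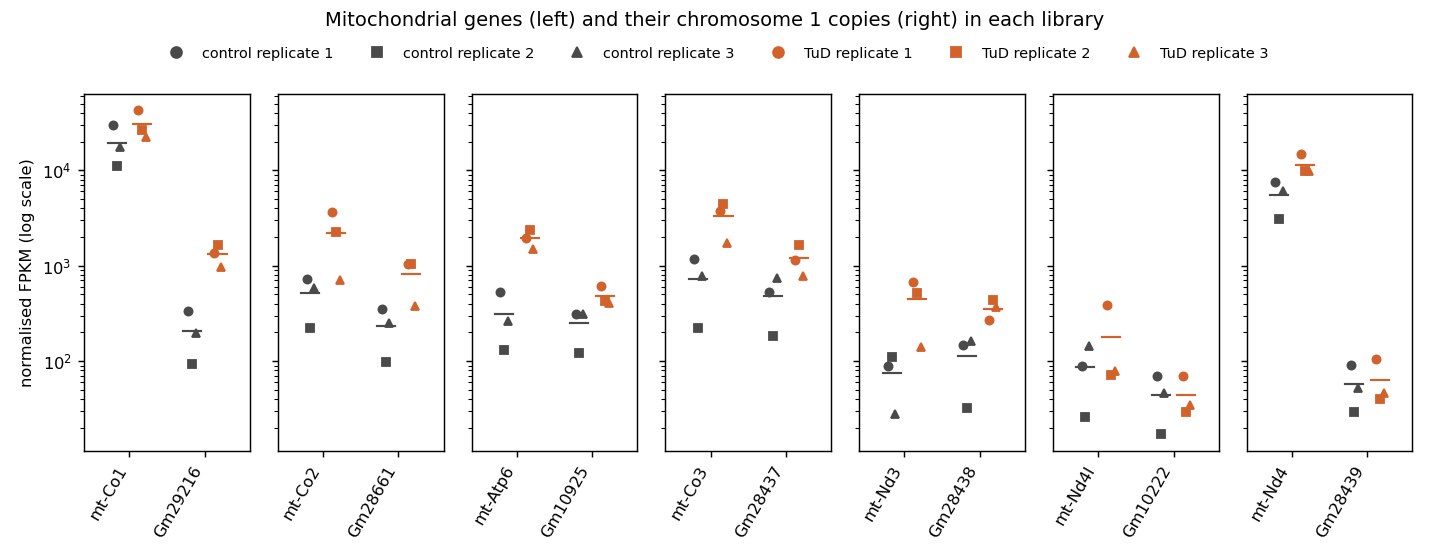
Normalised FPKM on a log scale of 7 mitochondrial genes (left of each panel) and their annotated chromosome 1 copies (right) in each library; symbols are replicates, short lines are group means, grey is control and orange is TuD. Gm29216 is higher in each TuD library than in any control while mt-Co1 overlaps, and Gm28439 and Gm10222 overlap while mt-Nd4 does not.

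The tRNAs, at 59 to 75 bases, are shorter than the fragments of such libraries, so their reads may come in part from longer RNAs that still contain them. Of the 22, 5 did not pass the filter: mt-Tf had no read in any library (3 reads, the limit that a count of 0 allows, would be an FPKM of 2.28 to 3.07), mt-Tv had 0 to 2 reads, mt-Td 0 to 2, mt-Tk 0 to 1, and mt-Tg 0, 1 and 0 reads in the controls against 39, 27 and 1 in the TuD hearts. mt-Tp, mt-Tn and mt-Tc, the tRNAs for proline, asparagine and cysteine, held 82.8% to 91.2% of the tRNA reads of each library. They are printed here because the tRNA results turn on them, each as read from the minus strand (mt-Tp MT:15356-15422, mt-Tn MT:5089-5159, mt-Tc MT:5192-5257) and without the CCA end that is added later. The capitals mark the anticodon, found as the 3 bases with 2 loop bases on each side between complementary arms of 5 bases.
mt-Tp: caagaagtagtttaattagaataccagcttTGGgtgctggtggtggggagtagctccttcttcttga
mt-Tn: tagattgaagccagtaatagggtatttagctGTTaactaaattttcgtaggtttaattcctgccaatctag
mt-Tc: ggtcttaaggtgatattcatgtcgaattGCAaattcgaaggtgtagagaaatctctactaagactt

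mt-Tc stood at 1151, 1102 and 1244 in the controls and 2737, 3941 and 3704 in the TuD hearts, with all 3 TuD libraries far above the controls (log2 fold change 1.55 ± 0.17 SE, adjusted p = 0.00197, limma; at most 0.0430 over the alternatives). mt-Tn, which faces mt-Tc across the origin of light-strand replication, stood at 1453, 1406 and 1685 in the controls and 2463, 3864 and 3803 in the TuD hearts (1.13 ± 0.20 SE, adjusted p = 0.00669), and lost its call under quantile normalization and under a correction for length. The ratio of mt-Tc to mt-Tn reads was 0.736, 0.728 and 0.686 in the controls and 1.03, 0.948 and 0.906 in the TuD hearts. mt-Tp stood at 2576, 1771 and 2529.5 in the controls and 3151, 3493 and 3466 in the TuD hearts (0.57 ± 0.18 SE, adjusted p = 0.0443), a smaller difference. Its call was lost in 12 of 20 alternatives, among them each fit without 1 library and the Y-linked term, and the fold change turned negative under quantile normalization (-0.11) and the length correction (-0.34). mt-Ty and mt-Ta, from the same minus-strand cluster as mt-Tn and mt-Tc, did not pass. The levels were 265, 178 and 233 in the controls and 291, 242 and 211 in the TuD hearts for mt-Ty and 8.46, 8.08 and 9.92 against 17.1, 19.1 and 5.23 for mt-Ta. Neighbours in 1 cluster thus had log2 fold changes from 0.14 (mt-Ty) to 1.55 (mt-Tc).

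Among the other tested tRNAs, mt-Tl2 rose at 82.2, 32.8 and 28.9 in the controls and 379, 205 and 121 in the TuD hearts (log2 fold change 2.29 ± 0.47 SE, adjusted p = 0.0107, limma). It lost its call under the length correction (1.38, adjusted p = 0.0512) and with the Y-linked term (1.49, adjusted p = 0.114). mt-Ts2, its neighbour, had 10, 3 and 10 reads against 38, 12 and 28 (2.01 ± 0.50 SE, adjusted p = 0.0203), and its call was lost in 5 of 20 alternatives, among them the fit without TuD replicate 1 and the one with the Y-linked term. mt-Tw stood at 54.6, 44.6 and 57.4 in the controls and 97.0, 80.6 and 64.7 in the TuD hearts (0.61 ± 0.17 SE, adjusted p = 0.0272), lost its call in 10 of 20 alternatives and turned negative under the length correction (-0.31). mt-Ts1, the serine tRNA on the minus strand beside the end of mt-Co1, had no read in any control and 5, 6 and 5 reads in the TuD libraries. As it passed the filter through the TuD libraries alone, its fitted change has no weight, and it was left out when at least 30 reads over the 6 libraries were required, another alternative chosen after the data were seen. mt-Tt, with 0 to 4 reads per library, mt-Th, with 6 to 23, mt-Ti, with 9 to 37, mt-Tr, with 1 to 36, and mt-Tl1, mt-Te, mt-Tq and mt-Tm did not pass. mt-Tq (-0.05 ± 0.38 SE) and mt-Tm (-0.30 ± 0.22 SE) were the 2 tested genes of the mitochondrial genome with a fold change below 0. mt-Te, which abuts mt-Nd6 on the minus strand, stood at 238, 66.8 and 192 in the controls and 409.95, 219 and 398 in the TuD hearts (1.18 ± 0.45 SE, adjusted p = 0.0824).

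By strand, 11 of 23 tested plus-strand genes (median log2 fold change 1.11) and 4 of 9 minus-strand genes (median 1.13) rose. The minus-strand count and median include mt-Ts1, whose call is no support, as stated above. The share of mitochondrial reads on minus-strand genes was 2.61%, 2.43% and 2.98% in the controls and 2.77%, 2.86% and 3.85% in the TuD hearts, which overlap. mt-Nd6 and mt-Nd1, the first protein-coding gene on the plus strand, had a ratio of mt-Nd1 to mt-Nd6 on the FPKM scale of 3.45, 4.87 and 3.24 against 3.50, 4.69 and 3.06, which overlap. Strand here is that of the annotated gene, not that of a read. Whether strand was used in counting is not given in the sources used here. Without it, reads of a minus-strand tRNA and of precursor RNA from the plus strand through the same bases cannot be told apart, and the 14 bases shared by mt-Nd5 and mt-Nd6 would belong to both.

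The nuclear genome encodes the other subunits of the complexes that hold the mitochondrial proteins. Of 74 nuclear subunits of complexes I, III and IV and the ATP synthase that were listed and tested, 57 rose, none fell (0 also at an unadjusted p under 0.05 and with limma-voom) and 17 did not pass (median log2 fold change 0.69, against 0.01 over all tested genes). The counts were 29 of 37 for complex I, 5 of 9 for complex III, 10 of 13 for complex IV and 13 of 15 for the ATP synthase. Ndufa6, an accessory subunit of complex I, stood at 129.9, 137 and 150.04 in the controls and 269.99, 341 and 274 in the TuD hearts (1.08 ± 0.13 SE, adjusted p = 0.00241, limma). Cox6c, a complex IV subunit, stood at 133, 113 and 139 in the controls and 295, 398 and 343 in the TuD hearts (1.42 ± 0.14 SE, adjusted p = 0.00194). Uqcrh, the hinge protein of complex III, had a log2 fold change of 0.91 ± 0.13 (SE, adjusted p = 0.00355), and Atp5l, a subunit of the ATP synthase, 1.11 ± 0.12 (SE, adjusted p = 0.00204). The median transcript length of these 74 was 1631 bases against 3853 over all tested genes. Their number of calls dropped to 25 when the values were rescaled to TPM, to 34 under quantile normalization and to 24 with the Y-linked term. Over all tested genes the 1565 that rose became 438, 1473 and 651 in the same order. Complex II has no mitochondrially encoded subunit. Of its 4 genes Sdhb passed (0.47 ± 0.14 SE, adjusted p = 0.0337). This call was lost in 10 of 20 alternatives, 5 of which left out 1 library. Sdha, Sdhc and Sdhd did not pass.

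Calls were also counted in lists of genes that copy, transcribe and process the mitochondrial genome. For comparison, 15% of all tested genes rose and 14.3% fell. Of 9 tested genes of mitochondrial transcription 1 fell and 2 rose. Polrmt, the RNA polymerase of mitochondria, fell from 10.6, 12.4 and 11.5 in the controls to 9.33, 8.19 and 7.46 in the TuD hearts (log2 fold change -0.44 ± 0.12 SE, adjusted p = 0.0257, limma), while Mterf3 (0.36, adjusted p = 0.0426) and Top1mt, a topoisomerase (0.46, adjusted p = 0.0493), rose. The call of Polrmt was lost in 5 of 20 alternatives. That of Mterf3 was lost in 10 of 19, among them each fit without 1 library, and that of Top1mt in 11 of 19. Tfam, which packs and helps transcribe mitochondrial DNA, did not pass (-0.04 ± 0.13 SE). Of 19 tested genes of RNA processing and decay 2 rose (Fastkd5 and Hsd17b10, the latter a part of RNase P, with calls lost in 6 of 19 and 7 of 20 alternatives) and 5 fell. Those that fell were Ptcd1 (-0.55, adjusted p = 0.00902), Supv3l1, a helicase of RNA decay (-0.41, adjusted p = 0.0297), Tbrg4 (-0.33, adjusted p = 0.0300), Elac2, which cuts the other end of the tRNAs (-0.34, adjusted p = 0.0306), and Lrpprc, which holds mitochondrial messenger RNAs stable (-0.35, adjusted p = 0.0499). The call of Ptcd1 was lost in 1 of 20 alternatives. Such counts are not given here for Supv3l1, Tbrg4, Elac2 and Lrpprc. Of 9 tested genes of DNA replication and maintenance none rose (1 at an unadjusted p under 0.05 and 1 with limma-voom) and 3 fell, namely Polg, the DNA polymerase (-0.58 ± 0.11 SE, adjusted p = 0.00845), Lig3 (-0.57, adjusted p = 0.0259) and Twnk, the helicase (-0.43, adjusted p = 0.0417), with calls lost in 1 of 20, 7 of 19 and 8 of 20 alternatives. Among markers of the organelle itself, Cs, citrate synthase, fell from 341, 339.5 and 347 in the controls to 235, 214 and 265 in the TuD hearts (-0.53 ± 0.12 SE, adjusted p = 0.0125), as did Vdac1 (-0.44, adjusted p = 0.0420), while Vdac3 rose (0.45 ± 0.10 SE, adjusted p = 0.0156). The call of Cs was lost in 2 of 20 alternatives, the Y-linked term among them, and that of Vdac3 in 4 of 20.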

How the data were processed

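The 3 control and 3 TuD libraries were grouped by the labels. The kit was NEBNext Ultra RNA on total RNA, per the labels. Per the submitters' processing notes, HISAT2 2.0.5, featureCounts 1.5.0-p3 and mm10 were used, and strand setting, handling of multiply mapped reads and annotation release are not given in the sources used here. The deposited values are FPKM, computed by the authors, with gene lengths. FPKM times length gave whole reads (within 0.05) for 100% of values, 15.2 to 18.2 M (megareads) per library; intervals and floors cover counting error only.

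Size factors (median of ratios) came from genes with an FPKM of at least 1 in all libraries, and each column was divided by its own. Genes with an FPKM of at least 1 in at least 3 libraries were tested with limma (lmFit and a trended eBayes) on log2(value + 0.5), two-sided, Benjamini-Hochberg adjusted over all 10460 genes, threshold 0.05; the length correction was a lowess of span 0.3. Sums and shares have no test. Copies were sought among GENCODE M21 transcripts, as stretches of 150 bases (100 and 50 as alternatives), in place of the planned search of a genome, which was not used here. The script was tested on simulated data. Members and lists were chosen with earlier results of these data known. All protein-coding and rRNA genes are named, tRNAs that passed the filter, copies that passed it, and up to 3 members of each nuclear list by lowest p. Supv3l1, Tbrg4, Elac2, Lrpprc, Tfam, Vdac1, Sdhd, Adipoq, Gm13341 and the tRNAs below the filter are not named by this rule and were picked once their values were seen. Tools were R 4.3.3, limma 3.58.1, Python 3.11.15, numpy 2.4.6, pandas 2.3.3 and matplotlib 3.10.9.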

Additional observations from a re-analysis of the deposited data

How the results depend on the processing

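Of the 14 mitochondrial genes that rose apart from mt-Ts1, 4 stayed past the threshold in each of 20 alternatives and 10 lost it in at least 1. Counts from here on include mt-Ts1 wherever it was tested. The number that rose was 9 under quantile normalization, 7 without a filter, 6 after the length correction and 6 with the Y-linked term. It was 7 to 18 when a library was left out. Over all tested genes the 1565 that rose became 1473, 1010 (of 22702 tested), 1195 and 651 in the same order. They became 882 to 1703 when a library was left out. For protein-coding genes the 6 became 3, 1, 2 and 1 under these 4 alternatives, 3 with robust eBayes, and 1 to 6 with a library left out. For tRNAs the 7 became 4, 4, 2 and 3, and 4 to 10 with a library left out. Rescaling to TPM shifted the median of all tested genes to -0.36, and 1 gene, mt-Tm, then fell; 2 fell after the length correction (mt-Tm and mt-Ty) and 2 with the Y-linked term (mt-Tm and mt-Ta), all of them tRNAs. For the nuclear subunits the 57 became 25 with TPM, 34 under quantile normalization and 24 with the Y-linked term. The 0 that fell became 3, 2 and 1. Over all tested genes 438, 1473 and 651 rose and 4202, 1681 and 529 fell in the same order. The sign of the fold change turned in at least 1 alternative for 10 genes, 3 protein-coding and 7 tRNA. Among the genes that had risen these were mt-Tw (length correction, -0.31) and mt-Tp (quantile normalization, -0.11; length correction, -0.34). Those that then passed the threshold as lower were mt-Ta (Y-linked term, -0.70) and mt-Ty (length correction, -0.78). The other 6 did not pass it in the alternatives that turned them: mt-Nd2 (to -0.18 under quantile normalization), mt-Nd5 (to -0.29 under quantile normalization), mt-Atp8 (to -0.65 under the length correction), mt-Tl1 (-0.27, length correction), mt-Th (-0.12, length correction) and mt-Tq (to 0.34 without TuD replicate 3). The TuD minus control difference in the tRNA share of mitochondrial reads, 0.0605 percentage points, was 0.574 on summed FPKM and -0.0182 to 0.167 with a library left out; that of the minus strand, 0.489, was 1.19 on summed FPKM and 0.145 (without TuD replicate 3) to 0.685 with a library left out; and that of mt-Nd4l among protein-coding reads was -0.0123 to 0.0149 with a library left out. The causes were not tested.

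Whether replicate numbers pair the libraries is not given in the sources used here. Deviations from the group means correlated at 0.06, 0.09 and -0.06 for equal numbers and at -0.16 to 0.09 for unequal ones. Such values over all tested genes cannot decide it. With the replicate block 20 mitochondrial genes rose (8 protein-coding, 10 tRNA) and none fell, while 1462 of all tested genes rose and 1199 fell. With 3 libraries a group, genes of a few reads, such as mt-Ts1, mt-Tt and mt-Ts2, are limited by depth.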

Other observations

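A second block of mitochondrial sequence lies on chromosome 2, where Gm13340, which resembles mt-Co1, stood at 23.2, 4.10 and 8.08 normalised FPKM in control replicates 1, 2 and 3 and 26.7, 20.2 and 10.5 in the TuD hearts (log2 fold change 0.91 ± 0.56 SE, adjusted p = 0.245, limma). Gm13339, which resembles mt-Nd2, stood at 12.7, 1.29 and 39.4 in the controls and 14.3, 6.24 and 4.13 in the TuD hearts (-0.34 ± 0.98 SE, adjusted p = 0.816, limma), with control replicate 3 far above the other 5 libraries. Gm13341, which resembles mt-Co2, had 1 to 14 reads per library and was not tested.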
